A study of Mus musculus with 10 samples.

Results

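The chemokine and chemokine receptor genes of the mouse esophagus were taken as the protein-coding genes whose symbols begin with Ccl, Cxcl, Ccr, Cxcr or Ackr followed by a number and at most 1 letter, together with Cx3cl1, Cx3cr1, Xcl1, Xcr1 and Ccrl2. Of the 54446 genes in the deposited table, 21969 of them protein-coding, 60 met this rule. They comprised 37 ligands, 18 signalling receptors and 5 atypical receptors. Cxcl11 matched by name but was annotated as a polymorphic pseudogene, and was left out. Its values were 0 to 6.39 normalized counts in OXA libraries and 0 to 4.87 in vehicle libraries.

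Whole esophagus of wild-type C57BL/6 mice was profiled by CEL-Seq, an RNA-seq method that counts reads near the 3' end of transcripts. Treated mice went through a model of eosinophilic esophagitis raised with the contact hapten oxazolone (OXA), and 5 libraries, C1, D1, D2, D3 and D4, were made from them. The controls received vehicle and gave 5 libraries, A1 to A5. Both groups had the wild-type genotype and the same strain. The dose, schedule and route of OXA, the age and sex of the mice and the meaning of the letters were not given in the sources used here, and the letters are nested within treatment, so that they and OXA cannot be told apart. The labels speak of mice but not of how the libraries relate to single animals, so the p-values below measure the spread between these libraries. Reads assigned to genes numbered 3675479 to 8364227 in OXA libraries and 5094159 to 12108822 in vehicle libraries. A normalized count is a read count that the authors divided by a size factor of its library, and 3 reads corresponded on average to 3.50 normalized counts in an OXA library and 2.82 in a vehicle library. Tests compare levels between libraries within a gene. Where a gene is called low, well expressed or most of a sum, this describes its normalized counts only.

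Chemokines are small secreted proteins that bind receptors coupled to inhibitory G proteins and direct the movement of leukocytes along a gradient. CC and CXC chemokines are named for the spacing of their first cysteines, and most inflammatory members share receptors, while homeostatic members such as Cxcl12 and Ccl21a place cells in resting tissue. Atypical receptors bind chemokines without G protein signalling and present, transport or remove them. In eosinophilic esophagitis the eotaxins, ligands of the eosinophil receptor CCR3, are the best known members of the family.

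Most of the chemokine and receptor genes that could be tested were higher in OXA esophagus. Reads were found for 57 of the 60 genes, and 42 reached a mean of 5 normalized counts over the 10 libraries and were tested with limma. At an adjusted p under 0.05, 26 of the 42 were higher in OXA libraries and 1, Ccrl2, was lower. Over all 14712 genes tested, 15.7% were called higher and 14.2% lower. The median log2 fold change, OXA over vehicle on the log2(normalized count + 1) scale, was 1.34 over the 42 genes and -0.01 over all genes tested. For 18 of the 42 genes every OXA library lay above every vehicle library, and for 0 every OXA library lay below; over all genes these shares were 12.0% and 10.4%.

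Genes near 0 in vehicle esophagus could pass the filter only through the OXA libraries. Of the tested members, 6 had a vehicle mean under 5 normalized counts (Ccl3, Cxcl5, Xcl1, Ccr6, Ccr7 and Xcr1), and 5 of these were called higher. Ccl3, Xcl1 and Ccr7 are also among the 18 genes in which every OXA library lay above every vehicle library. Among the 36 members with a vehicle mean of at least 5, 21 were higher and 1 lower, with a median log2 fold change of 1.09. Over the 14163 genes of the series with such a vehicle mean, 14.6% were higher and the median was -0.04. By role, 17 of 26 tested ligands and 8 of 11 tested signalling receptors were higher, with median log2 fold changes of 1.21 and 2.47. With a vehicle mean of at least 5 these were 14 of 23 ligands and 6 of 8 signalling receptors. The median log2 fold changes of these 23 and 8 genes were 0.97 and 2.29. Of the 5 atypical receptors 1 was higher and 1 lower, with a median of -0.15. The libraries are bulk tissue, in which a change in cell numbers and a change in RNA per cell cannot be told apart.

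**Figure D1:**
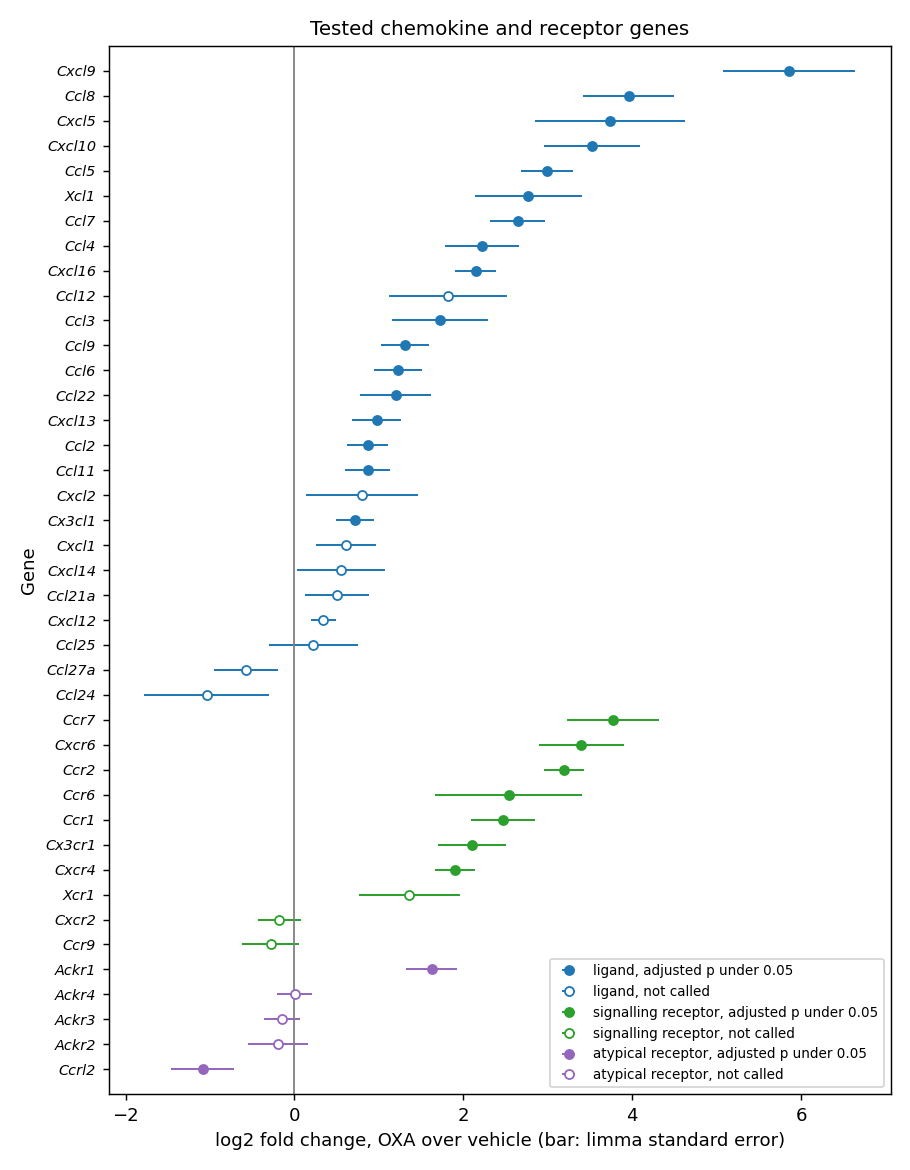
Log2 fold change, OXA over vehicle, of 41 tested genes by role (blue ligands, green signalling receptors, purple atypical receptors), with limma standard errors as bars and filled points for an adjusted p under 0.05. Points of 17 ligands and 7 signalling receptors are filled to the right of 0, and Ccrl2 is the 1 filled point to the left.

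The DNA upstream of 6 genes is shown first, because their windows hold the letters of the interferon-response or NF-kappaB motif that is textbook knowledge for chemokine promoters. The windows, from RefSeq on GRCm38.p6, cover the 250 bases before the transcription start and are written 5' to 3' on the gene's strand. Capitals mark a match to GAAANNGAAA (the IRF or ISRE core) in Cxcl10 and to GGGNNTTTCC (kappaB) in the others, searched on both strands; capitals that begin GGAAA are kappaB matches on the opposite strand. The windows are chr5:92348890-92349139 (minus strand) for Cxcl10, chr5:90890995-90891244 (plus) for Cxcl1, chr5:90903649-90903898 (plus) for Cxcl2, chr5:90785851-90786100 (plus) for Cxcl3, chr11:83578637-83578886 (minus) for Ccl9 and chr9:124021721-124021970 (plus) for Ccr3.
Cxcl10: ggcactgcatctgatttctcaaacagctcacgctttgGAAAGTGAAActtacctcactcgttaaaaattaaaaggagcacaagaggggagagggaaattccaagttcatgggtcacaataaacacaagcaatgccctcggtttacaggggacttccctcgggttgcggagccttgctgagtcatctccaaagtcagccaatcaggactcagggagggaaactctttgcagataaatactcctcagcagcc
Cxcl1: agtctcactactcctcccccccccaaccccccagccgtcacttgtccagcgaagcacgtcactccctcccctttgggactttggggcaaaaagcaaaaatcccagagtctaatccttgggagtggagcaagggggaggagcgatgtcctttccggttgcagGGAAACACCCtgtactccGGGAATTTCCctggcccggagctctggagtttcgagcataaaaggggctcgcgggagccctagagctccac
Cxcl2: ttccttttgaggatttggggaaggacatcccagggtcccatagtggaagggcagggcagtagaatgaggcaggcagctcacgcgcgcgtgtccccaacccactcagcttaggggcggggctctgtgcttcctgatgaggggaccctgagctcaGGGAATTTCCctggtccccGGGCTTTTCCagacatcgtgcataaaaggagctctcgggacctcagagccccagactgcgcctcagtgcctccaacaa
Cxcl3: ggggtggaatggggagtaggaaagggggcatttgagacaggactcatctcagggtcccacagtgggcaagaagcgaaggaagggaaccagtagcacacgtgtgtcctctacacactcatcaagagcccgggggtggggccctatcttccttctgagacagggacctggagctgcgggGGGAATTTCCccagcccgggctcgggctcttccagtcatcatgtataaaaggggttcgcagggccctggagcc
Ccl9: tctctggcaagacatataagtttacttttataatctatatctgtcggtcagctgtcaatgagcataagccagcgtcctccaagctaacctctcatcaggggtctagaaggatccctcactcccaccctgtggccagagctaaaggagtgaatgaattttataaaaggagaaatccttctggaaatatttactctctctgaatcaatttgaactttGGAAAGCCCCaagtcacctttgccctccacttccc
Ccr3: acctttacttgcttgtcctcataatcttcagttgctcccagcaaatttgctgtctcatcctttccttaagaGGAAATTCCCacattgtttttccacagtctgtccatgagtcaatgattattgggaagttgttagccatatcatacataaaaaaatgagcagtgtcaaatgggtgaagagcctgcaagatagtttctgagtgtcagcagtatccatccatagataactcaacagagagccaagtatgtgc

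The Cxcl10 match lies 213 to 204 bases before the start. Cxcl1 holds kappaB letters at 89 to 80 and 71 to 62 bases, Cxcl2 at 97 to 88 and 78 to 69 bases, and Cxcl3 at 73 to 64 bases before the start. The 3 Cxcl genes lie in 1 cluster on chromosome 5, and each carries the run GGGAATTTCC. Windows were matched for 46 of the 60 genes, 17 of them called higher, and were searched over 300 bases (250 before and 50 after the start). Genes without a window, and so not searched for any motif, included Ccl11, Ccl24, Ccl26, Ccl2, Ccl4, Ccl5, Ccl7, Cxcl5 and Cxcl16. KappaB letters of the form GGGNNTTTCC were found for 6 of the 46, against 1.89% of the 27025 genes in the RefSeq table. Besides the 5 genes above, Ccl20 held a match. Of these 6, only Ccl9 was called higher. Other forms of the kappaB motif were not searched, so a gene without a match, such as Cxcl10, may still hold one. The IRF or ISRE core was found for 3 of 46 (Ccl19, Cxcl10 and Cxcl14), against 3.99% of all genes. The STAT motif TTCNNNGAA was found for 3 (Ccl17, Ccr6 and Cxcl14), against 9.55%, and TTCNNNNGAA, the spacing known for STAT6, for 1 (Ccl17), against 8.01%. A match is a run of letters and not a measured binding site.

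Among the ligands of Ccr3, the receptor that guides eosinophils, Ccl11 (eotaxin-1, chr11:82057823-82063255) was higher in OXA esophagus and Ccl24 (eotaxin-2) was not called. Ccl11 had 483, 422, 1068, 487 and 308 normalized counts in the OXA libraries C1, D1, D2, D3 and D4, against 258, 233, 386, 232 and 299 in the vehicle libraries A1 to A5; per-library values below keep this order. Library D2 stood far above the other OXA libraries, and D4 lay within the vehicle range, so the groups overlapped. The means were 554 ± 297 in OXA and 282 ± 64.3 in vehicle libraries (SD, n = 5 each), a log2 fold change of 0.87 ± 0.27 (SE; adjusted p = 0.0255). The Ccl11 call was lost without the mean-variance trend (adjusted p = 0.0554) and when vehicle library A1 (0.0535), A2 (0.0583) or A4 (0.0591), or A3 and A4 together (0.0580), were left out.

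Ccl24 had 11.4, 18.5, 21.7, 5.75 and 0 normalized counts in OXA libraries, against 11.3, 11.2, 26.3, 8.83 and 32.9 in vehicle libraries, with no separation (log2 fold change -1.04 ± 0.74, adjusted p = 0.310), and the log2 fold change came to -0.28 without D4. Ccl26, whose human counterpart is the eotaxin most studied in this disease, was listed at 0 in every library. Ccl28, a mucosal ligand of Ccr3 and Ccr10, averaged 1.01 ± 1.20 in OXA and 0.608 ± 0.556 normalized counts in vehicle libraries (SD, n = 5 each), under the filter. Ccl5 and Ccl7, ligands that Ccr3 shares with Ccr1 and other receptors, were both higher and are given with those receptors.

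Ccr3 (chr9:124021972-124031989), whose upstream window is printed above, was found in OXA libraries and in none of the vehicle libraries. It had 4.58, 2.13, 19.9, 0.960 and 4.79 normalized counts in OXA libraries and 0 in each of the 5 vehicle libraries, which came to 24 reads in all in OXA esophagus and 0 in vehicle esophagus. The groups did not overlap, and D2 carried the highest value of Ccr3 as of Ccl11. The mean fell under the filter, so it was tested singly: the exact two-sided permutation test gave p = 0.00794, unadjusted, the smallest that 5 against 5 libraries allow.

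Eosinophil markers were mostly at or near 0 in these libraries. Summed over 8 markers they ranged from 107 to 608 normalized counts in OXA libraries and from 39.0 to 58.5 in vehicle libraries, a sum carried by Ear6 and Ear2, ribonucleases that macrophages also express. Of the 2 markers tested, Ear6 was higher, beside 15.7% of all tested genes. Prg3 was at 0 in every library, and the defining genes Prg2 (granule major basic protein), Epx (eosinophil peroxidase) and Siglecf did not exceed 7.66, 1.53 and 7.24 normalized counts in any OXA library. The part of cell composition in the Ccl11 and Ccr3 results was not tested.

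Ccr2 and 2 of its 3 ligands were higher in OXA esophagus, beside 15.7% of all tested genes. Ccr2 (chr9:124101950-124113857), which brings inflammatory monocytes out of bone marrow and into tissue, had 415, 348, 360.3, 218 and 573 normalized counts in OXA libraries, against 30.8, 34.5, 50.7, 49.3 and 34.3 in vehicle libraries. The lowest OXA library was far above the highest vehicle library. Its means were 383 ± 128 in OXA and 39.9 ± 9.32 in vehicle libraries (SD, n = 5 each), and its log2 fold change of 3.19 ± 0.24 had the smallest adjusted p of the 42 tested genes, 7.61e-07.

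Of the Ccr2 ligands, Ccl7 (MCP-3, which also binds Ccr1 and Ccr3) separated the groups. It had 119, 84.6, 56.1, 76.6 and 152 normalized counts in OXA libraries, against 25.7, 9.75, 11.7, 17.1 and 10.02 in vehicle libraries (log2 fold change 2.64 ± 0.33, adjusted p = 5.05e-05). Ccl2 (MCP-1) had 299, 307, 309.6, 189 and 367 in OXA libraries, against 200.3, 161, 223, 85.2 and 156 in vehicle libraries (0.87 ± 0.25, adjusted p = 0.0162). Only OXA library D3 lay within the vehicle range of Ccl2, and the call was lost without A5, D2 and D4 (adjusted p = 0.101). Ccl12 (MCP-5, a mouse ligand) had 64.9, 29.1, 41.6, 13.4 and 28.7 in OXA libraries, against 21.6, 0.750, 28.3, 14.02 and 2.86 in vehicle libraries. The groups overlapped, and Ccl12 missed the threshold (1.82 ± 0.70, adjusted p = 0.0650) and came to 1.22 without A2 (0.139), but passed without A1 (0.0463), without A3 (0.0333), without D3 (0.0471) and without A3 and A4 (0.0288).

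Ccl8 (MCP-2, in the mouse a ligand of Ccr8) was higher in OXA esophagus without overlap. It had 861, 699, 1430.2, 555 and 675 normalized counts in OXA libraries, against 18.5, 21.8, 189, 115 and 35.8 in vehicle libraries. Vehicle libraries A3 and A4 stood above the other 3, yet every OXA library lay above both. The means were 844 ± 345 in OXA and 76.0 ± 74.4 in vehicle libraries (SD, n = 5 each), with a log2 fold change of 3.96 ± 0.54 (adjusted p = 1.09e-04) that came to 4.98 without A3 and A4. Ccl1, the other ligand of Ccr8, had 6.11, 0.710, 1.81, 6.70 and 7.98 in OXA libraries, against 0, 0, 0, 1.04 and 0 in vehicle libraries (exact permutation p = 0.0159, unadjusted). Ccr8 itself, a receptor of T helper 2 and regulatory T cells, was near 0, with 8 reads over the OXA and 3 over the vehicle libraries (exact permutation p = 0.405).

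Every ligand of Ccr1, a receptor of monocytes, macrophages and activated T cells, was called higher, as was the related Ccl4. Of all tested genes, 15.7% were called higher. Ccl5 (RANTES), made by T and NK cells among others, had 58.8, 63.3, 76.0, 69.9 and 126 normalized counts in OXA libraries, against 7.19, 6.00, 15.6, 9.87 and 7.15 in vehicle libraries (log2 fold change 2.99 ± 0.30, adjusted p = 1.19e-05). Ccl4 (MIP-1 beta) had 26.7, 42.6, 23.5, 29.7 and 54.3 in OXA libraries, against 7.19, 3, 9.74, 16.1 and 2.86 in vehicle libraries (2.22 ± 0.44, adjusted p = 0.00183). Neither gene's groups overlapped. Ccl3 (MIP-1 alpha) had 6.11, 13.5, 18.1, 4.79 and 3.19 in OXA libraries, against 1.03, 0.750, 2.92, 2.60 and 1.43 in vehicle libraries (1.72 ± 0.57, adjusted p = 0.0337). Its groups were apart by little, and it kept its call in 14 of 21 alternatives. Leaving out C1 (adjusted p = 0.0556), A1 (0.0664), A2 (0.0715) or A5 (0.0541) ended the call. Without D1 or without D2 the mean of Ccl3 fell under the filter, so no fit was made. Its log2 fold change came to 0.97 with a pseudocount of 5 and 2.33 in DESeq2.

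Ccl6 and Ccl9, myeloid chemokines of the mouse that signal through Ccr1, were well expressed in both groups. Ccl6 had 1592, 1077, 1932, 715 and 1204 normalized counts in OXA libraries, against 508, 328, 913, 415 and 634 in vehicle libraries (log2 fold change 1.23 ± 0.29, adjusted p = 0.00530). Ccl9, whose window above holds kappaB letters 35 to 26 bases before its start, had 861, 607, 983, 412 and 613 in OXA libraries, against 252, 147, 423, 226 and 386 in vehicle libraries (1.31 ± 0.29, adjusted p = 0.00352). For both, D3 was the lowest OXA library and lay below A3, the highest vehicle library. Summed over Ccl3, Ccl5, Ccl6, Ccl7 and Ccl9, the ligands of Ccr1 came to 2185 ± 693 normalized counts in OXA and 872 ± 340.4 in vehicle libraries (SD, n = 5 each); Ccl6 and Ccl9 made up most of both sums.

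Their receptor Ccr1 moved the same way. It had 132, 86.7, 105, 35.4 and 52.7 normalized counts in OXA libraries, against 22.6, 9, 14.6, 14.5 and 7.15 in vehicle libraries (log2 fold change 2.47 ± 0.38, adjusted p = 3.18e-04). The groups did not overlap, with D3 the lowest OXA library.

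Both tested ligands of Cxcr3 that interferon induces, Cxcl9 and Cxcl10, were higher in OXA esophagus, beside 15.7% of all tested genes. Cxcl9 had 607, 434, 605, 369 and 979 normalized counts in OXA libraries, against 8.22, 1.5, 93.5, 15.6 and 1.43 in vehicle libraries. Among vehicle libraries A3 stood apart at 93.5, but the lowest OXA library was still above it. Cxcl9 averaged 598 ± 237 in OXA and 24.1 ± 39.3 in vehicle libraries (SD, n = 5 each), and its log2 fold change of 5.86 ± 0.78 (adjusted p = 9.36e-05) came to 6.68 without A3 and to 7.21 without A3 and A4. It came to 4.64 in edgeR and in DESeq2, 5.14 with a pseudocount of 5 and 5.06 without A5, D2 and D4.

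Cxcl10, whose window above holds the IRF or ISRE core, had 283, 356, 348, 282 and 364 normalized counts in OXA libraries, against 20.5, 15.8, 99.4, 73.2 and 5.72 in vehicle libraries. The OXA libraries lay close together, while A3 and A4 were again above the other vehicle libraries. Cxcl10 averaged 326 ± 40.7 in OXA and 42.9 ± 41.0 in vehicle libraries (SD, n = 5 each; log2 fold change 3.52 ± 0.56, adjusted p = 3.94e-04), and the log2 fold change came to 4.6 without A3 and A4, 2.87 in edgeR, 2.92 in DESeq2 and 2.92 without A5, D2 and D4. Its exons share 133 bases with the exons of Art3 on the opposite strand, and the strand setting of the counting was not given in the sources used here. The receptor Cxcr3, of T helper 1 and NK cells, had 4.58, 2.84, 1.81, 0 and 6.39 in OXA libraries and 0 in each vehicle library (exact permutation p = 0.0476, unadjusted).

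A3 and A4 also differed from the other vehicle libraries in Irf7, a transcription factor that interferon induces. Irf7 was at 241 to 816 normalized counts in OXA libraries, and at 125 in A3, 449.8 in A4 and 18.6 to 29.8 in the other vehicle libraries. A3 and A4 held the highest vehicle values of Cxcl9, Cxcl10 and Ccl8. Leaving them out therefore had to raise the log2 fold changes of these genes, given above. Without A3 and A4, 21 members were called higher in place of 26.

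**Figure D2:**
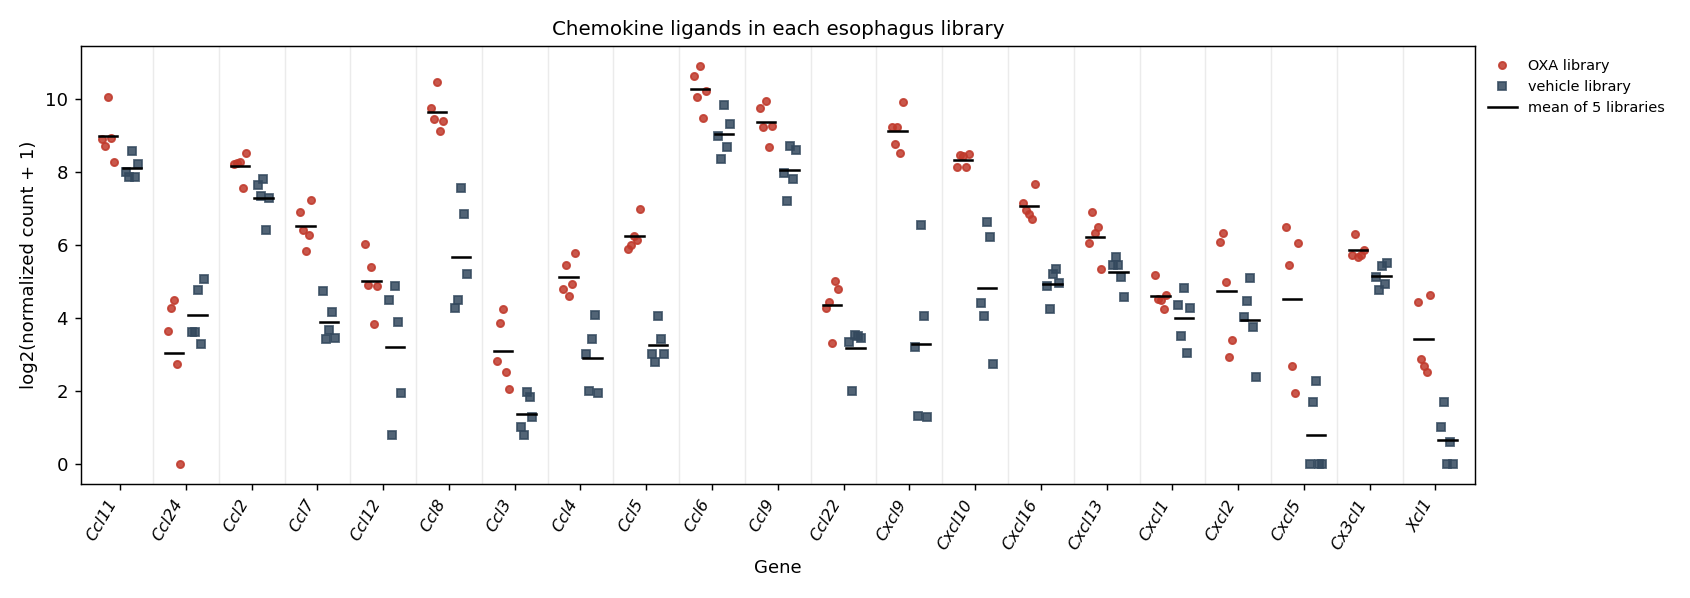
Log2(normalized count + 1) of 21 tested ligands in each OXA (red circles) and vehicle (dark squares) library, with black bars at the group means. Cxcl9, Ccl8, Cxcl10 and Ccl5 show no overlap between groups, Ccl24 and Cxcl1 overlap, and the vehicle points of Ccl8, Cxcl9 and Cxcl10 are spread widely.

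Cxcl16 and its receptor Cxcr6, which holds T and NKT cells in tissue, were both higher without overlap. Cxcl16 had 141, 124, 116, 104 and 203 normalized counts in OXA libraries, against 28.8, 18, 36.0, 39.5 and 30.1 in vehicle libraries (log2 fold change 2.14 ± 0.24, adjusted p = 2.75e-05). It shares 552 exonic bases with Zmynd15 on the opposite strand. Cxcr6 had 83.2, 74.6, 63.4, 92.9 and 337 in OXA libraries, against 14.4, 9.75, 3.9, 22.3 and 4.29 in vehicle libraries (3.40 ± 0.50, adjusted p = 2.22e-04). OXA library D4 had the highest value of both genes.

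Cx3cl1 (fractalkine), like Cxcl16 a chemokine tethered to the cell membrane, had 52.7, 78.9, 50.7, 51.7 and 57.5 normalized counts in OXA libraries, against 33.9, 26.2, 41.9, 29.6 and 44.4 in vehicle libraries. The groups did not overlap, but the difference was small (log2 fold change 0.72 ± 0.22, adjusted p = 0.0248) and missed the threshold without A2 (0.0640), A4 (0.0609), D1 (0.0627) or A3 and A4 (0.0816). Its receptor Cx3cr1, of monocytes and tissue macrophages, had 58.0, 44.8, 29.0, 30.6 and 16.0 in OXA libraries, against 8.22, 11.2, 7.80, 6.75 and 2.86 in vehicle libraries (2.1 ± 0.41, adjusted p = 0.00151). Adam10, the protease that sheds both tethered ligands, averaged 376 ± 45.6 in OXA and 199 ± 25.7 normalized counts in vehicle libraries (SD, n = 5 each; 0.91 ± 0.14, adjusted p = 2.46e-04).

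The ligands of Cxcr2, the receptor that brings in neutrophils, did not move as a group. Of the 3 tested, 1 was called higher, beside 15.7% of all tested genes. Cxcl5, made by epithelium and myeloid cells, had 90.1, 43.4, 5.43, 2.87 and 65.5 normalized counts in OXA libraries, against 0, 2.25, 3.9, 0 and 0 in vehicle libraries (log2 fold change 3.74 ± 0.89, adjusted p = 0.00592). C1, D1 and D4 were high, D2 was near the vehicle libraries and D3 lay below A3. The log2 fold change of Cxcl5 came to 4.38 without D3, 2.34 with a pseudocount of 5 and 5.07 in DESeq2.

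The other Cxcr2 ligands, whose windows above hold kappaB letters, did not pass. Cxcl2 had 67.2, 79.6, 30.8, 6.70 and 9.58 normalized counts in OXA libraries, against 15.4, 21, 33.1, 12.5 and 4.29 in vehicle libraries (0.80 ± 0.66, adjusted p = 0.388). C1 and D1 were again the high OXA libraries. Cxcl1 averaged 24.2 ± 6.44 in OXA and 16.6 ± 7.92 in vehicle libraries (SD, n = 5 each; 0.61 ± 0.36, adjusted p = 0.213). Cxcl3 fell under the filter, with 21 reads over the OXA and 4 over the vehicle libraries (exact permutation p = 0.0952). Cxcr2 itself was not called, at 27.6 ± 5.64 in OXA and 31.5 ± 6.80 in vehicle libraries (SD, n = 5 each; -0.18 ± 0.25, adjusted p = 0.633), and Cxcr1, its relative, had 3 reads over the OXA and 0 over the vehicle libraries. Of 8 neutrophil markers, 4 were tested, 3 of them higher and 1 (Camp) lower, beside 15.7% higher and 14.2% lower over all genes. The 8 summed to 56.5 to 194 normalized counts in OXA libraries and 32.9 to 48.0 in vehicle libraries, with Ly6g, Mpo and Elane at or near 0. Their part in the Cxcr2 and ligand values was not tested.

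Ligands and receptors of lymphoid positioning were partly higher. Ccr7, which leads dendritic cells and naive T cells to lymph nodes, had 19.9, 28.4, 27.2, 18.2 and 62.3 normalized counts in OXA libraries, against 0, 2.25, 1.95, 3.64 and 0 in vehicle libraries (log2 fold change 3.77 ± 0.55, adjusted p = 1.83e-04). The groups were apart by a wide margin, with D4 highest, and the log2 fold change came to 2.38 with a pseudocount of 5 and 3.14 without A5, D2 and D4. Its ligand Ccl21a, a product of lymphatic endothelium, was not called, at 481 ± 288 in OXA and 296 ± 88.9 in vehicle libraries (SD, n = 5 each; 0.50 ± 0.38, adjusted p = 0.337). Ccl21b, a near-identical copy, was listed at 0 in every library, so reads of the copies may have been assigned unevenly. Ccl19, the other Ccr7 ligand, had 31 reads over the OXA and 8 over the vehicle libraries (exact permutation p = 0.0317).

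Cxcl13, the B cell chemokine, had 66.4, 119, 79.7, 89.1 and 39.9 normalized counts in OXA libraries, against 43.1, 50.2, 42.9, 33.8 and 22.9 in vehicle libraries (log2 fold change 0.97 ± 0.29, adjusted p = 0.0224). D4 lay within the vehicle range, and the call was lost without A5 (adjusted p = 0.0546), D1 (0.0521), D3 (0.0510) or A3 and A4 (0.0810). Its receptor Cxcr5 had 12 reads over the OXA and 0 over the vehicle libraries (exact permutation p = 0.0476). B cell markers, 5 in all, summed to 12.7 to 180 normalized counts in OXA libraries and 1.43 to 23.3 in vehicle libraries. Of the 3 markers tested, 2 were called higher, beside 15.7% of all tested genes. The part of B cells in these values was not tested.

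Cxcr4, found on most leukocytes, had 114, 139, 136, 116 and 203 normalized counts in OXA libraries, against 24.6, 40.5, 46.8, 28.0 and 47.2 in vehicle libraries (log2 fold change 1.90 ± 0.23, adjusted p = 5.06e-05). The groups did not overlap. Its ligand Cxcl12, a product of stromal cells, averaged 333 ± 52.4 in OXA and 260.4 ± 28.4 in vehicle libraries (SD, n = 5 each; 0.34 ± 0.15, adjusted p = 0.0895). Cxcl12 missed the threshold, but passed with library-total scaling (0.0369) and without D3 (0.0285).

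**Figure D3:**
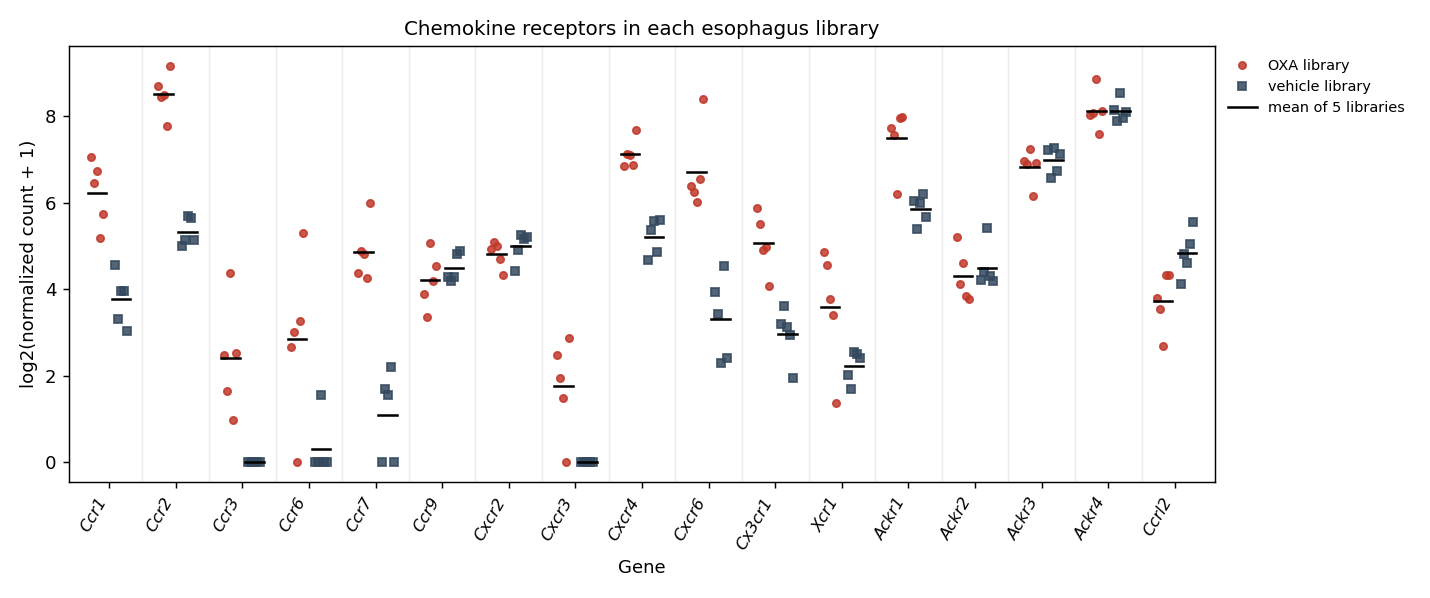
Log2(normalized count + 1) of 17 signalling and atypical receptors in each OXA (red circles) and vehicle (dark squares) library, with black bars at the group means. Ccr1, Ccr2, Ccr7, Cxcr4, Cxcr6, Cx3cr1 and Ackr1 show no overlap between groups, Ccr3 and Cxcr3 lie at 0 in all vehicle libraries, and Cxcr2, Ccr9, Ackr3 and Ackr4 overlap.

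Xcl1 (lymphotactin), a product of NK cells and CD8 T cells, had 20.6, 6.40, 5.43, 4.79 and 23.9 normalized counts in OXA libraries, against 1.03, 2.25, 0, 0.520 and 0 in vehicle libraries (log2 fold change 2.77 ± 0.63, adjusted p = 0.00455). Every OXA library lay above every vehicle library. The log2 fold change of Xcl1 came to 1.43 with a pseudocount of 5, 3.69 in edgeR and 3.88 in DESeq2, and its exons share 98 bases with Gm20743 on the opposite strand. Its receptor Xcr1, of cross-presenting dendritic cells, had 28.2, 22.8, 12.7, 9.58 and 1.60 in OXA libraries, against 3.08, 2.25, 4.87, 4.67 and 4.29 in vehicle libraries. D4 lay below all vehicle libraries, and Xcr1 missed the threshold (1.36 ± 0.60, adjusted p = 0.103). It passed without D4 (0.00620), without A5, D2 and D4 (0.00923), with array quality weights (0.00843), in edgeR (0.0176) and in DESeq2 (0.00580).

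The ligands of Ccr4, a receptor of T helper 2 and skin-homing T cells, were low. Ccl22 had 18.3, 20.6, 9.05, 31.6 and 27.1 normalized counts in OXA libraries, against 9.24, 3, 10.7, 10.4 and 10.02 in vehicle libraries (log2 fold change 1.20 ± 0.42, adjusted p = 0.0444). D2 lay within the vehicle range, and the call held in 12 of 25 alternatives; leaving out any library but D2 ended it (adjusted p 0.0554 to 0.107). Ccl17 had 12 reads over the OXA and 34 over the vehicle libraries (exact permutation p = 0.151), and Ccr4 had 4 and 0 reads (p = 0.444, exact permutation).

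Ccr6, of T helper 17 cells, B cells and immature dendritic cells, had 5.34, 7.11, 0, 8.62 and 38.3 normalized counts in OXA libraries, against 0, 0, 1.95, 0 and 0 in vehicle libraries. D4 stood far above the other OXA libraries, D2 had 0, and there were 50 reads over the OXA and 2 over the vehicle libraries, so its fitted log2 fold change of 2.54 ± 0.87 (adjusted p = 0.0413) depends on the 1 added before taking logs. It came to 1.28 with a pseudocount of 5, 4.64 in edgeR, 4.98 in DESeq2 and 3.25 without D2. It kept the call in 12 of 22 alternatives, and leaving out C1, D1, D3, A1, A2, A4 or A5 singly ended it (adjusted p 0.0706 to 0.0852). Without D4 the mean of Ccr6 fell under the filter, so no fit was made. Its ligand Ccl20, an epithelial product, had 10 reads over the OXA and 43 over the vehicle libraries (exact permutation p = 0.103).

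The remaining ligands and receptors did not pass. Ccr9, a receptor of gut-homing T cells, averaged 19.0 ± 8.97 in OXA and 22.0 ± 5.38 normalized counts in vehicle libraries, and its ligand Ccl25 16.9 ± 10.4 and 12.6 ± 6.27 (SD, n = 5 each; adjusted p = 0.565 and 0.783). Ccl27a, an epithelial ligand of Ccr10, averaged 9.90 ± 5.81 in OXA and 14.01 ± 2.98 in vehicle libraries (SD, n = 5 each; adjusted p = 0.280), and its near-identical copy Ccl27b was listed at 0. Ccr10 had 16 reads over the OXA and 1 over the vehicle libraries (exact permutation p = 0.0476). Cxcl14, an epithelial chemokine with no agreed receptor, averaged 27.1 ± 17.7 in OXA and 15.6 ± 7.21 in vehicle libraries (SD, n = 5 each; adjusted p = 0.457). Cxcl15 and Cxcl17 fell under the filter (exact permutation p = 0.365 and 0.190). Exonic bases shared with a gene on the opposite strand numbered 22 for Ccr9 with Slc6a20a and 1876 with AC165425.1, 181 for Ccl25 with Elavl1, 8 for Ccl27a with Il11ra1, 110 for Cxcr5 with Bcl9l, 352 for Ackr4 with Acad11 and 78 for Cx3cr1 with Gm33858. Ccr9 also shares 269 with Gm17200 on its own strand.

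Among the atypical receptors, Ackr1 and Ccrl2 went opposite ways. Ackr1, which carries chemokines across the endothelium of venules, had 209.9, 189.8, 72.4, 246 and 252 normalized counts in OXA libraries, against 64.7, 41.2, 62.4, 72.2 and 50.1 in vehicle libraries (log2 fold change 1.63 ± 0.30, adjusted p = 0.00121). D2 lay just above the highest vehicle library and the other OXA libraries far above it. Ackr1 shares 284 exonic bases with Cadm3 on the same strand. Ccrl2, which binds chemerin and presents it to other cells, had 12.98, 10.7, 5.43, 19.1 and 19.2 in OXA libraries, against 16.4, 27.0, 23.4, 32.2 and 45.8 in vehicle libraries (-1.09 ± 0.38, adjusted p = 0.0428). A1 lay within the OXA range, and Ccrl2 kept the call in 12 of 25 alternatives; leaving out any 1 library but A1, D3 or D4 ended it (adjusted p 0.0630 to 0.106).

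The scavengers Ackr2, of inflammatory CC chemokines, Ackr3, of Cxcl12, and Ackr4, of Ccl19, Ccl21a and Ccl25, were not called. Ackr2 averaged 20.4 ± 9.66 in OXA and 23.1 ± 10.6 normalized counts in vehicle libraries, Ackr3 116 ± 29.0 in OXA and 128 ± 26.5 in vehicle libraries, and Ackr4 292 ± 103 in OXA and 282 ± 52.6 in vehicle libraries (SD, n = 5 each). Their log2 fold changes were -0.19 ± 0.35, -0.15 ± 0.22 and 0.00 ± 0.21 (SE; adjusted p = 0.721, 0.633 and 0.990), and the sign of each turned under at least 1 alternative.

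By position, many of the genes lie in clusters of gene duplicates. On chromosome 11 the cluster of Ccl2, Ccl7, Ccl11, Ccl12, Ccl8 and Ccl1 (chr11:82035571-82305690) had 4 of its 5 tested genes higher, beside 15.7% of all tested genes, and the cluster of Ccl5, Ccl9, Ccl6, Ccl3 and Ccl4 (chr11:83525478-83664983) had 5 of 5. Within a cluster the sizes differed: in the first, Ccl2 and Ccl11 each had a log2 fold change of 0.87, while Ccl8, between Ccl12 and Ccl1, had 3.96. The Cxcl5, Cxcl3, Cxcl15, Cxcl1 and Cxcl2 cluster (chr5:90759360-90906238) had 1 of 3 tested genes higher. Among neighbouring receptor genes of chromosome 9, Cxcr6, Ccr1 and Ccr2 were higher, Ccr9 and Xcr1 were not called and Ccr3 fell under the filter. In the cluster of Ccl27a, Ccl19 and Ccl21a with their copies (chr4:41769167-42773993), neither tested gene, Ccl27a or Ccl21a, was called; in that of Ccl22, Cx3cl1 and Ccl17 (chr8:94745590-94812336), 2 of 2 were higher. The other tested genes within these clusters, 1 beside Ccl5, 1 beside Ccl27a, 2 beside Cxcl5 and 2 among the chromosome 9 receptors, were not called.

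**Figure D4:**
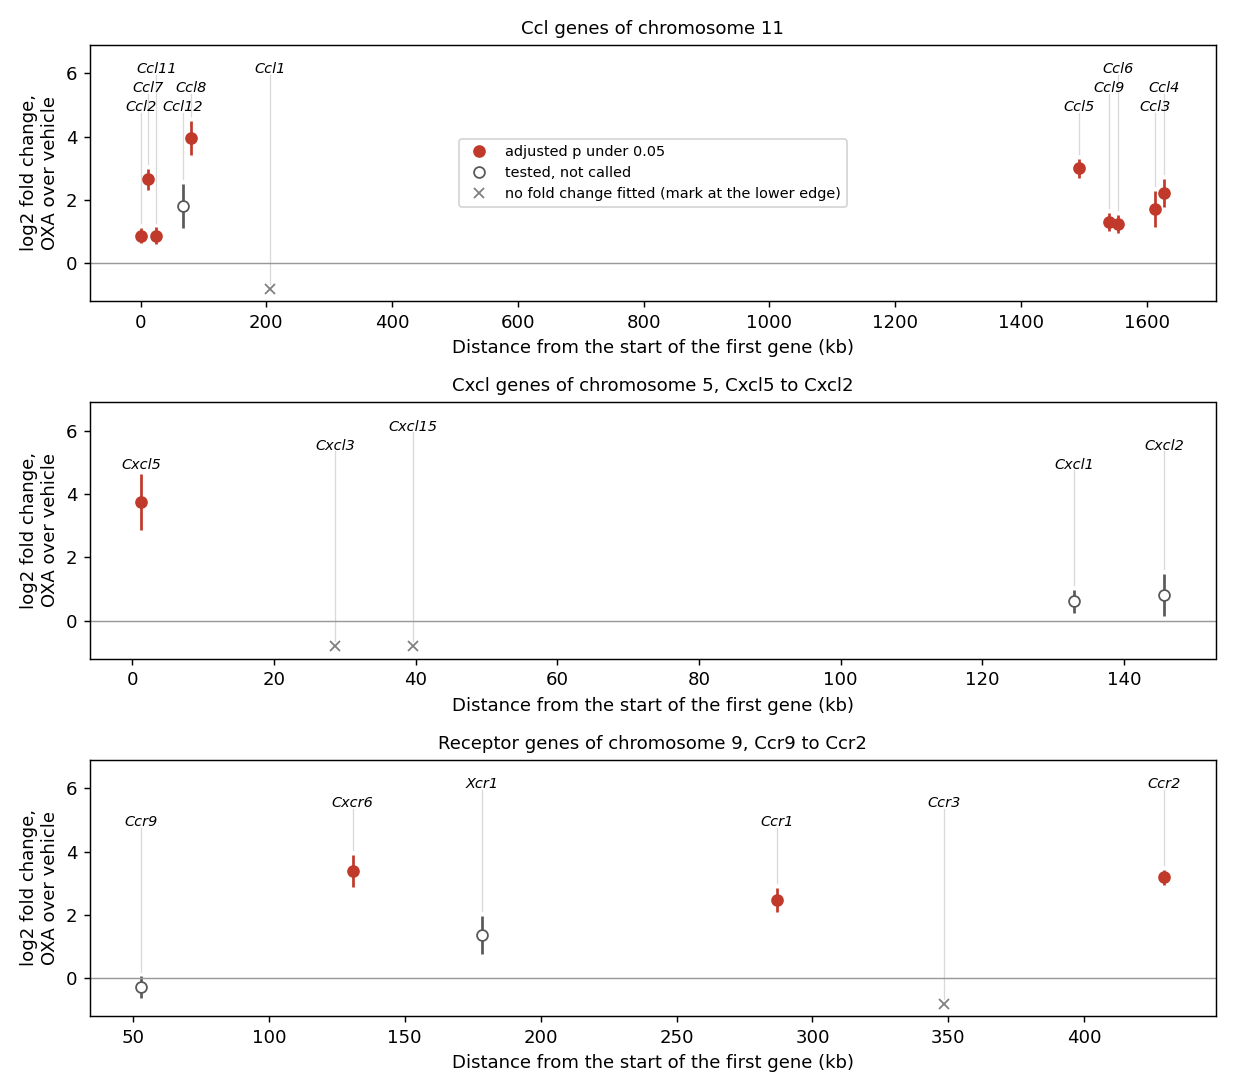
Log2 fold change, OXA over vehicle, with its limma standard error, against distance of each gene's midpoint from the start of its panel's first gene in kilobases. The panels show chemokine and receptor clusters of chromosomes 11, 5 and 9. Both clusters of chromosome 11 share a panel and are measured from the start of Ccl2. Red points have an adjusted p under 0.05, open points do not, and crosses at the lower edge mark genes with no fitted fold change; neighbours such as Ccl12 and Ccl8 or Ccr9 and Cxcr6 differ in size.

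The genes that carry the signal of these receptors were higher in part. Of 30 genes of receptor signalling and its control, all tested, 16 were higher and 1, the G protein subunit Gnai1, was lower (log2 fold change -0.62 ± 0.21, adjusted p = 0.0391); the median log2 fold change was 0.83. Over all tested genes 15.7% were higher and 14.2% lower. The smallest p-values belonged to leukocyte genes of actin and migration. Coro1a, an actin-binding protein, had a log2 fold change of 2.32 ± 0.18 (adjusted p = 1.17e-06), the small GTPase Rac2 2.1 ± 0.23 (1.92e-05), its activator Dock2 2.01 ± 0.25 (5.11e-05) and the actin regulator Was 2.17 ± 0.37 (5.98e-04).

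Of 19 other chemoattractants and enzymes that process chemokines, 15 were tested, 2 were higher and 1 was lower, beside 15.7% higher and 14.2% lower over all genes, with a median log2 fold change of 0.32. Besides Adam10, the formyl peptide receptor Fpr2 was higher (2.62 ± 0.58, adjusted p = 0.00364). Dpp4, the protease that trims the N termini of Ccl11 and Cxcl10, averaged 35.7 ± 14.5 in OXA and 86.7 ± 25.6 normalized counts in vehicle libraries (SD, n = 5 each) and was lower (-1.31 ± 0.31, adjusted p = 0.00574). The receptors of prostaglandin D2 and histamine on eosinophils, Ptgdr2 and Hrh4, were listed at 0. Ppbp, a platelet chemokine, ranged from 3.62 to 857 in OXA libraries and from 22.3 to 274 in vehicle libraries and was not called.

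Of 24 cytokines, receptors and transcription factors known to induce chemokines, 19 were tested and 15 were higher, beside 15.7% of all tested genes. The other 4 were not called, and the median log2 fold change was 0.98. Smallest p-values were those of Nfkb2 (1.29 ± 0.14, adjusted p = 1.98e-05), Il4ra, the shared receptor chain of IL-4 and IL-13 (1.69 ± 0.20, 3.71e-05), Irf1 (2.19 ± 0.27, 5.67e-05) and Irf8 (1.89 ± 0.24, 6.03e-05). Stat6, the factor downstream of Il4ra, was not called (0.16 ± 0.16, adjusted p = 0.478). The cytokine genes Ifng, Tnf, Il4, Il13 and Il17a all fell under the filter, with group means of at most 2.40 normalized counts in OXA and 0.300 in vehicle libraries. Il1b, a cytokine gene of the same list, was tested and was higher, with overlapping groups (2.03 ± 0.57, adjusted p = 0.0159).

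Many markers of the leukocytes that bear these receptors were higher too. Over all tested genes, 15.7% were higher and 14.2% lower. Of 10 monocyte and macrophage markers, all tested, 9 were higher, and their sum ranged from 3361 to 6105 normalized counts in OXA libraries and from 1458 to 2471 in vehicle libraries. Of 10 T cell markers, all tested, 8 were higher, with sums of 495 to 553 in OXA and 126 to 191 in vehicle libraries. All 3 tested of 6 NK cell markers, Klrk1, Nkg7 and Prf1, were higher (sums of 81.4 to 117 in OXA and 9.75 to 34.3 in vehicle libraries). Ncr1, Klrb1c and Eomes fell under the filter. Their means in OXA and vehicle libraries were 0 and 0.194 for Ncr1, 3.87 and 0 for Klrb1c, and 4.06 and 1.42 for Eomes. Among tested dendritic and Langerhans cell markers 4 of 6 were higher (153 to 209.9 in OXA and 56.5 to 81.8 in vehicle libraries). Cd207, the Langerhans cell marker of that list, fell under the filter and averaged 0.192 ± 0.429 in OXA and 5.11 ± 2.83 normalized counts in vehicle libraries (SD, n = 5 each), with each OXA library below each vehicle library. None of these 4 lists held a gene at 0 in every library. Of 7 mast cell markers, 5 were tested, of which 1 was higher and 4 were not called. The 7 summed to 99.6 to 329.5 normalized counts in OXA libraries and 81.8 to 146 in vehicle libraries. Of 6 squamous epithelium markers, which were abundant in every library, 1 was higher and 2 were lower (sums of 215989 to 530107 in OXA and 587409 to 996546 in vehicle libraries). The part of these cell types in the receptor and ligand results was not tested.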

How the data were processed

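The authors deposited 1 table of gene-level normalized counts, a signal in which each library's read counts are divided by its size factor. The submitters' processing notes list Bowtie2 2.2.6, cutadapt 1.10, DESeq2 1.18.1, FastQC 0.11.5, HTSeq 0.11.2, TopHat2 2.1.0, Trim Galore and the GRCm38 build, with no role or order. Use of molecular identifiers, the strand setting and the annotation release were not given in the sources used here. Within a tolerance of 0.006, 100% of values were whole multiples of 1 read, so whole reads were recovered. Gene positions were those given with the deposited counts. Exon overlaps came from GENCODE M21, which matched all 60 genes.

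Normalized counts were tested with limma 3.58.1 (R 4.3.3) on log2(value + 1), with a mean-variance trend, for genes with a mean of at least 5, two-sided, with Benjamini-Hochberg adjustment over all 14712 genes and a threshold of 0.05. Genes under the filter were tested singly by exact permutation, two-sided, over all 252 splits of 10 libraries (scipy 1.17.1), unadjusted, with 0.00794 the smallest possible p. The fit was tested on simulated data. Alternatives changed the pseudocount, filter, scaling and model, added a replicate block or left out libraries; edgeR 4.0.16 and DESeq2 1.42.0 were run on the recovered reads. Leaving out A3 and A4 together was chosen after seeing the data.

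The genes and lists were chosen with earlier results of these data known. A tested receptor gene is in the counts and list medians but is not reported here singly or plotted. Values in every library are given for genes that were called and for Ccr3, Ccl11 and Ccl24; others are given by means or reads, and of each pathway list up to 4 called genes with the smallest p. Other genes named beside them (Ccl12, Cxcl2, Ccl1, Cxcr3, Xcr1, Irf7, Stat6, Il1b, Cd207, Ppbp) were chosen after their values were seen.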

Additional observations from a re-analysis of the deposited data

Results flagged for a closer look

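Values of 1 library stood far from the other 4 of its group, by the ratio of the gap to the group's range, in 12 of the 84 groups tested; chance alone flags about 1 in 20 groups.

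In OXA esophagus, library D4 was high in 5 genes. Cxcr6 had 337 normalized counts there, against 63.4 to 92.9 in the other OXA libraries. Cxcr4 had 203 in D4 and 114 to 139 in the others, Ccl5 126 in D4 and 58.8 to 76.0 in the others, Ccr7 62.3 in D4 and 18.2 to 28.4 in the others, and Ccr6 38.3 in D4 and 0 to 8.62 in the others. Library D2 was high in Ccl11, at 1068 against 308 to 487, and in Ccl27a, at 19.9 against 4.79 to 8.62. Library D1 was high in Cx3cl1, at 78.9 against 50.7 to 57.5. D2 and D4 had the fewest reads of the OXA libraries.

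Among vehicle libraries, A3 was high in Cxcl9, at 93.5 against 1.43 to 15.6 in the others, in Ackr2, at 41.9 against 17.2 to 20.2, and in Ccr6, at 1.95 (2 reads) against 0. Library A2 was low in Ccl22, at 3 against 9.24 to 10.7.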

How the results depend on the processing

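Over 25 alternatives, 19 of the 27 called genes stayed past the threshold wherever a value could be had, and 0 of the 27 changed sign. Genes called higher numbered 21 to 30 (21 to 26 leaving out 1 library), against 26 as reported. Genes called lower numbered 0, in place of 1, with a filter at a mean of 1, no filter, library-total scaling, the replicate block, without A5, D2 and D4, and without A3 and A4, and 0 to 1 leaving out 1 library. Without A3 and A4, 1588 of all genes were higher and 1184 lower, against 2309 and 2085; these fits have fewer samples. Library-total scaling moved the median of all genes from -0.01 to 0.11 and the calls to 2915 higher and 1545 lower. On recovered reads edgeR called 2411 genes higher and 1972 lower, and DESeq2 2627 and 2249, each with 27 members higher and 1 lower. The replicate block grouped libraries by the number after the letter. C1 and D1 thus shared a block with A1, and A5 had no OXA partner. With this block 1853 genes were higher and 1490 lower, with 22 members higher. Ccl2, Ccl3, Ccr6, Cxcl13 and Ccrl2 then had adjusted p of 0.0698, 0.104, 0.0672, 0.0630 and 0.127. Same-numbered libraries correlated at -0.23 to 0.19 over 5 pairs, so the numbers do not pair them. No OXA library correlated best with the vehicle library of its own number. Among genes not called, 3 (Ccl12, Cxcl12 and Xcr1) passed in some alternative. Signs turned for Ackr2 at 0.071 (array weights) and 0.048 (without A3 and A4), with -0.41 to 0.039 leaving out 1 library, and for Ackr4 at -0.0045 (quantile), -0.049 (array weights) and -0.24 (without A5, D2 and D4), with -0.18 to 0.14. They also turned for Ackr3 (-0.25 to 0.020) and Ccl25 (-0.032 to 0.64) leaving out 1 library; the cause was not tested. Depth limits genes under about 3 reads a library: Ccr3, Cxcr3, Cxcr5, Ccr4 and Ccr8 rest on 4 to 24 OXA reads.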
